A study of Oryctolagus cuniculus with 12 samples.

Results

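Triadin, encoded by TRDN, and the histidine-rich calcium-binding protein, encoded by HRC, were described in ventricles of fetal rabbit hearts with intrauterine growth restriction (IUGR, growth below that expected for the age of the fetus) and in control ventricles. The members were every array probe whose current gene symbol is TRDN or HRC, which gave 5 TRDN probes and 2 HRC probes. They stand for 2 of the 591 genes named on the array here, and for 7 of its 43603 probes. Both genes were chosen by their IUGR minus control differences in these same arrays, so those differences are given below as a description and without a test.

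In heart muscle, the sarcoplasmic reticulum stores calcium and releases it through the ryanodine receptor at each beat. Triadin spans the membrane of the junctional reticulum, where it binds the ryanodine receptor and the calcium-storing calsequestrin, and alternative splicing of TRDN yields longer forms in skeletal muscle and shorter forms in heart. HRC lies in the lumen of the reticulum, where it binds calcium and interacts with triadin and with the calcium pump. Both proteins are therefore part of the machinery that sets how much calcium is stored and released in a muscle cell.

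The data comprise 12 single-colour Agilent arrays, 6 of IUGR ventricles and 6 of control ventricles, each from 1 sample. The labels number the samples as 6 pairs, and a pair holds 1 IUGR and 1 control sample. IUGR samples carry the word treatment in their titles; the labels do not say what the treatment was, nor the strain, the gestational age or what the members of a pair have in common. Nothing in the labels says that the samples came from separate litters, so the spread between pairs may be partly technical. The labels list 500 ng of RNA for each sample and give RNA integrity numbers only as 1 range for all samples, 9.3 to 9.9. The ventricle was sampled as bulk tissue, in which fewer cells of a type and less RNA per cell cannot be told apart.

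Across all probes, any 2 arrays correlated at 0.957 to 0.978, and all 12 arrays resembled their own partner more than any other array of the opposite group once group means were removed. Arrays of pairs 1 and 2, of pairs 3 and 4 and of pairs 5 and 6 also resembled each other: their deviations correlated at a mean of 0.0920 between IUGR and control arrays of different pairs within such a set, against -0.0647 between sets. These sets were picked from the same arrays, so the 2 means describe the sets and do not test them. The labels name no batch, so values are given within these sets as well. Of the markers of heart muscle cells, MYH6, the alpha myosin heavy chain, stood at 14.98 ± 0.21 (SD, n = 6) log2 in IUGR and 14.77 ± 0.24 in control ventricles. RYR2, the cardiac ryanodine receptor, stood at 12.91 ± 0.17 and 13.04 ± 0.09. CKM, the muscle creatine kinase, had a signal of 15.64 in IUGR and 15.65 in control ventricles, where the largest value of the table was 15.83.

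HRC is described first, since its probes gave 1 picture. On HRC probe 1 (A_04_P102092, transcript NM_001082234), the control signals had a lowest value of 7.22, a median of 7.53 and a highest value of 8.50 log2, and the IUGR signals 7.64, 7.92 and 8.66. The groups overlapped: 3 controls lay below every IUGR ventricle and 1 IUGR ventricle lay above every control. Group means were 8.04 ± 0.36 (SD, n = 6) in IUGR and 7.71 ± 0.51 in control ventricles, a difference of 0.33 ± 0.64 over 6 pairs, or 1.26-fold.

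On HRC probe 2 (A_04_P000521, of the same transcript), the controls ran from 6.77 through a median of 7.36 to 8.46 and the IUGR ventricles from 7.28 through 7.70 to 8.37. All IUGR values lay inside the range of the controls, and 3 controls again lay below every IUGR ventricle. The difference was 0.25 ± 0.66 over 6 pairs, 1.19-fold. On both probes the SD over pairs exceeded the mean difference.

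The sign of the HRC difference was not the same in all pairs. On HRC probe 1, IUGR exceeded control by 0.92 in pair 1, 0.42 in pair 2, 0.56 in pair 5 and 0.97 in pair 6. In pair 3 the difference was -0.29 and in pair 4 it was -0.59. HRC probe 2 had the same sign in each pair, with 0.90, 0.51, 0.36 and 0.78 in pairs 1, 2, 5 and 6, and -0.19 and -0.83 in pairs 3 and 4. The controls of pairs 3 and 4 held the highest control signals on both probes, 8.13 and 8.50 on HRC probe 1, where the other 4 controls lay between 7.22 and 7.69. By set of similar arrays, the mean difference on HRC probe 1 was 0.67 in pairs 1 and 2, -0.44 in pairs 3 and 4 and 0.76 in pairs 5 and 6. It fell to 0.20 without pair 6 and 0.21 without pair 1, and it was 0.51 without pair 4. On HRC probe 2 it was 0.12 without pair 1, 0.15 without pair 6 and 0.47 without pair 4.

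**Figure D1:**
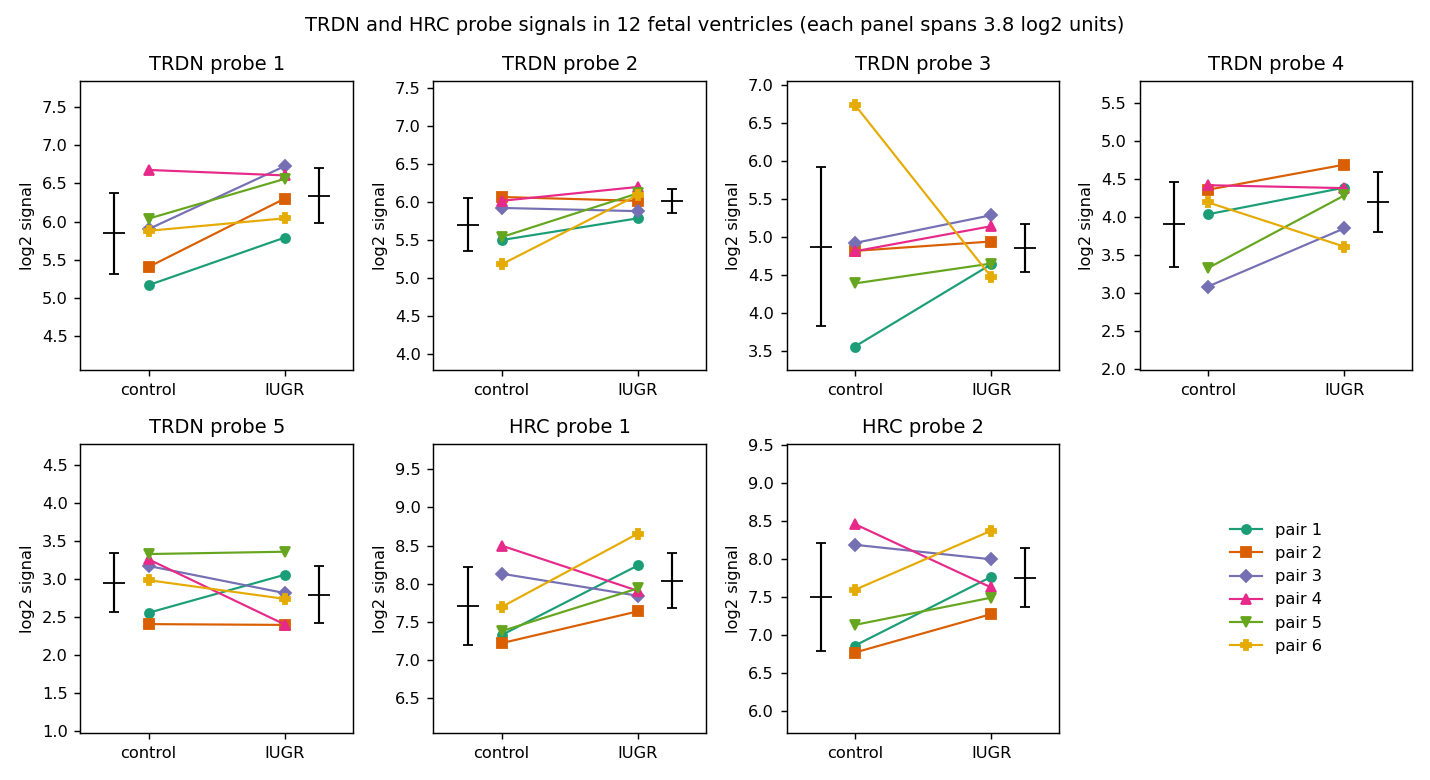
Log2 signal (vertical axis) of the 5 TRDN and 2 HRC probes in control and IUGR ventricles; a line joins the 2 samples of a pair, and black bars show mean ± SD of 6 samples. The 2 HRC panels look alike, with pairs 3 and 4 falling from control to IUGR, while the TRDN panels differ from one another.

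TRDN had 5 probes of 1 transcript, NM_001082743, numbered here from the brightest to the dimmest. Neither the labels nor the annotation say where in the transcript a probe lies, so which splice forms a probe detects is unknown. On TRDN probe 1 (A_04_P000971), the control signals had a lowest value of 5.16, a median of 5.89 and a highest value of 6.68 log2, and the IUGR signals 5.79, 6.43 and 6.73. The groups overlapped, with 2 controls below every IUGR ventricle and 1 IUGR ventricle above every control. Means were 6.34 ± 0.36 (SD, n = 6) in IUGR and 5.84 ± 0.53 in control ventricles, a difference of 0.50 ± 0.38 over 6 pairs, or 1.41-fold. It was the only one of the 7 probes whose mean difference exceeded its SD over pairs, but both genes were chosen by this difference. The share of all probes with such a difference was not counted, so nothing is read from it.

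IUGR was higher on TRDN probe 1 in 5 of 6 pairs, and 11.7% of all probes were higher in IUGR in 5 or more pairs; that share is given as background only. The differences were 0.63, 0.90, 0.83, 0.52 and 0.16 in pairs 1, 2, 3, 5 and 6. In pair 4, whose control had the highest control signal, the difference was -0.07. By set of similar arrays the mean was 0.76 in pairs 1 and 2, 0.38 in pairs 3 and 4 and 0.34 in pairs 5 and 6. Leaving out pair 2 gave a mean of 0.41, and leaving out pair 4 gave 0.61.

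TRDN probe 2 (A_04_P099452) also read higher in IUGR on the mean, but through other pairs. Its controls ran from 5.18 through a median of 5.73 to 6.07, and its IUGR ventricles from 5.79 through 6.06 to 6.20. Here 3 IUGR ventricles lay above every control and 3 controls below every IUGR ventricle. The difference was 0.31 ± 0.38 over 6 pairs. Pairs 5 and 6 gave 0.58 and 0.91, pairs 1 and 4 gave 0.29 and 0.18, and pairs 2 and 3, which were the highest on TRDN probe 1, gave -0.05 and -0.04. Without pair 6 the mean was 0.19.

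The 3 dimmer TRDN probes had no common direction. TRDN probe 3 (A_04_P099454) was higher in IUGR in 5 of 6 pairs, by 0.12 to 1.08, yet its mean difference was -0.02 ± 1.15. In pair 6 it differed by -2.26, since control replicate 6 stood at 6.74 where the other 5 controls lay between 3.56 and 4.92. Without pair 6 its mean difference was 0.43. None of its 6 IUGR values, 4.48 to 5.29, exceeded that control. Control replicate 6 also stood apart from the other controls on 4 of 6 measured liver genes, such as ITIH3 (7.12, others 2.34 to 3.41) and VTN (5.08, others 2.06 to 3.08). The part of this in the value of TRDN probe 3 was not tested.

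On TRDN probe 4 (A_04_P099453), the controls ran from 3.09 through a median of 4.12 to 4.42 and the IUGR ventricles from 3.61 through 4.33 to 4.69. The difference was 0.30 ± 0.56, higher in 4 of 6 pairs, with -0.58 in pair 6 and 0.95 in pair 5. Leaving out pair 5 gave 0.16, and leaving out pair 6 gave 0.47. TRDN probe 5 (A_04_P099455), the dimmest, was lower in IUGR in 4 of 6 pairs. Its controls ran from 2.41 through 3.08 to 3.33 and its IUGR ventricles from 2.40 through 2.78 to 3.36, with a difference of -0.16 ± 0.45. It was -0.02 without pair 4 and -0.29 without pair 1.

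Averaged over its 5 probes, TRDN differed by 0.19 ± 0.37 (4 of 6 pairs higher), and HRC averaged over its 2 probes by 0.29 ± 0.64 (4 of 6 pairs higher). Over all 43603 probes the median of the mean differences was 0.01 and 52.0% were above 0. Arrays of IUGR and control ventricles did not overlap for 0.0505% of all probes, and for none of the 7 probes of TRDN and HRC. In limma with the pair as a block, 0% of the 43603 probes passed an adjusted p of 0.05 (0 probes, with 1562 at an unadjusted p under 0.05), and an ordinary paired test also called 0 (1393 unadjusted). The contrast that chose both genes is the one counted here, so nothing is read from this about them.

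**Figure D2:**
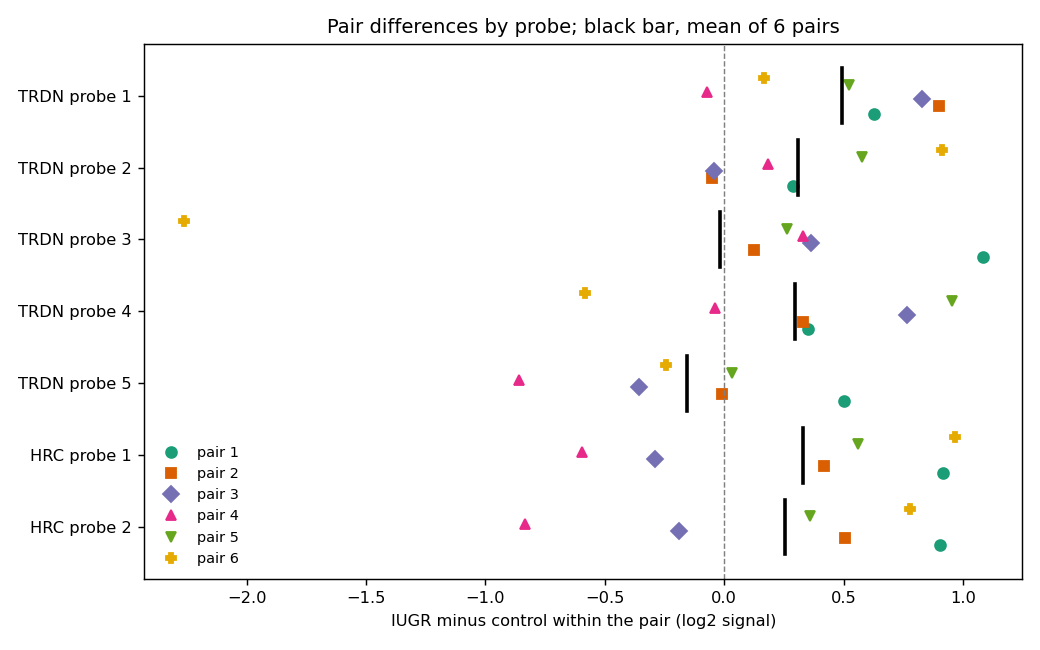
IUGR minus control difference within each of the 6 pairs (horizontal axis, log2 signal) for the 7 probes; coloured symbols are pairs and black bars are means. TRDN probe 1 has 5 pairs above 0, both HRC probes have pairs 3 and 4 below 0, and TRDN probe 3 has pair 6 at -2.26.

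How far the probes of a gene followed each other from ventricle to ventricle was described by Pearson's r over the 12 arrays after each group's mean had been subtracted. The arrays are paired and normalised together, so r is a description here. The 2 HRC probes correlated at 0.933. Among the 10 combinations of TRDN probes, r ran from -0.365 (probes 4 and 5) to 0.445 (probes 1 and 5), with a median of 0.0464. TRDN probes 1 and 2 correlated at 0.261.

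For comparison, 343 genes had 2 or more probes, and their median correlation between probes of 1 gene was 0.444. HRC stood at percentile 86.9 of these genes and TRDN at percentile 27.4. These genes were not matched to HRC or TRDN in signal or in number of probes. The part of either in these percentiles was not tested. TRDN and HRC probes were also set against each other. Over their 10 combinations r had a median of 0.243, from -0.352 between TRDN probe 4 and HRC probe 2 to 0.527 between TRDN probe 1 and HRC probe 2.

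**Figure D3:**
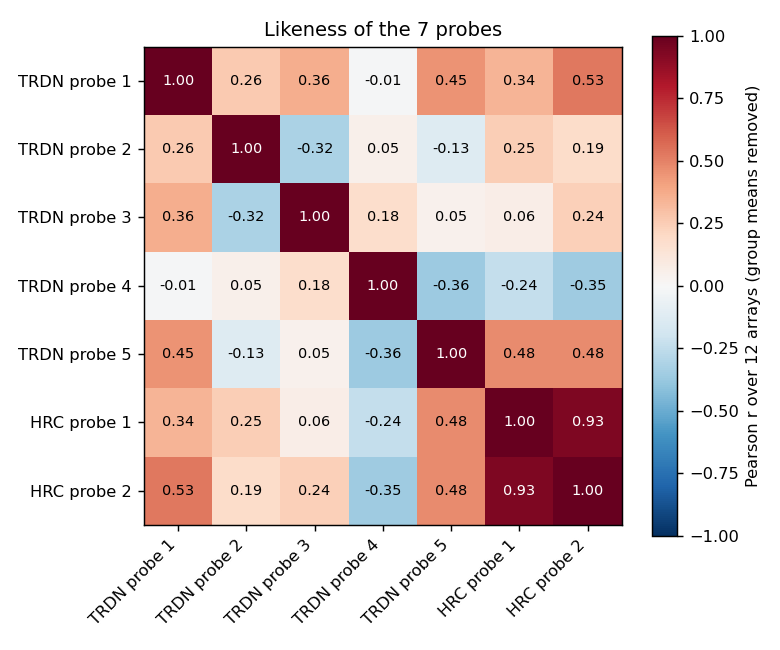
Pearson's r between the 7 probes over 12 arrays after subtraction of group means; red is positive and blue negative. The HRC probes stand together at 0.93, while the TRDN probes lie between -0.36 and 0.45 of each other.

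The signal of a probe sets how finely it is measured. HRC probes 1 and 2 stood at percentiles 73.6 and 71.6 of the probe means, and TRDN probes 1 to 5 at 59.9, 58.3, 51.6, 46.1 and 24.7. The deposited table holds only 4396 to 5040 distinct values per array, so that dim probes share values. A value of TRDN probe 5 was shared by a median of 819 other probes on the same array, and the next distinct value lay a median of 0.0621 log2 away. For HRC probe 1 this was 22 other probes and a step of 0.00792 log2. For TRDN probe 1 it was 71 other probes and a step of 0.0261 log2. These steps are smaller than the SDs within groups.

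Set against the 1000 probes nearest in mean signal, HRC varied more from ventricle to ventricle than most. The SD within groups was 0.44 log2 for HRC probe 1 and 0.57 for HRC probe 2, where the median of such probes was 0.25 and 0.27, which put them at percentiles 85.3 and 93.0. TRDN probe 1, with an SD of 0.45 against a median of 0.37, lay at percentile 70.1. TRDN probes 2, 4 and 5 lay at percentiles 13.1, 7.90 and 6.40, and TRDN probe 3 at 75.9. The SD of TRDN probe 3 includes the high signal of control replicate 6.

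How the level of either gene differed between pairs is given by the pair means. On TRDN probe 1 they ran from 5.48 in pair 1 to 6.64 in pair 4. On HRC probe 1 they ran from 7.43 in pair 2 to 8.20 in pair 4, and on HRC probe 2 from 7.02 in pair 2 to 8.09 in pair 3. In limma's moderated F test of the 5 pair terms, 0.149% of the 43603 probes were called (65 probes), and 0 or 1 when any 1 pair was left out. The call was met by 0 of the 7 probes of TRDN and HRC. With 2 arrays per pair, the error of that F test is the spread of the IUGR minus control differences, which was known when both genes were chosen, so the test is not independent of the choice and nothing is read from it about them.

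The pair values were also set against each other in 3 correlations, with exact two-sided permutation tests over all 720 orderings, adjusted over the 3. These tests treat the 6 pairs as exchangeable, whereas arrays of pairs 1 and 2, 3 and 4, and 5 and 6 resembled each other, so their p-values hold only as far as that departure allows. The pair means of TRDN probe 1 and HRC probe 1 correlated at r = 0.452 (exact permutation p = 0.369, adjusted p = 0.554), with Spearman's rho = 0.6 (exact permutation p = 0.242, adjusted p = 0.363). Without pairs 1 and 4, the farthest from the median of TRDN, r was 0.215. The IUGR and control signals of the same pair correlated at r = 0.694 for TRDN probe 1 (exact permutation p = 0.122, adjusted p = 0.367) with rho = 0.771 (exact permutation p = 0.103, adjusted p = 0.308), and at r = 0.596 without pairs 1 and 6. For HRC probe 1 that r was -0.0493 (exact permutation p = 0.911, adjusted p = 0.911) with rho = 0.0857 (exact permutation p = 0.919, adjusted p = 0.919), and 0.496 without pairs 1 and 6. The correlation within pairs also enters the SD of the pair differences, which was known when the genes were chosen. None of the 3 correlations passed.

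The genes around triadin and HRC in the calcium release unit came from a list of 26, of which 7 had a named probe, TRDN and HRC included. TRDN and HRC were chosen by this difference, so the other 5 are counted without them. On the mean 2 of the 5 were higher and 3 lower in IUGR, with a median difference of -0.03 (0.01 over all probes, and 0.14 with TRDN and HRC included), and 0 passed the adjusted threshold in limma. A gene stands here by its brightest probe. RYR2, the release channel to which triadin binds, differed by -0.13 ± 0.21 (SD, n = 6 pairs), was lower in 5 of 6 pairs, and 0 of its 4 probes were higher. Its 12 signals spanned only 12.67 to 13.19. CASQ1, the calsequestrin that prevails in skeletal muscle, differed by -0.16 ± 1.36, with -2.74 in pair 3 and 4 of 6 pairs higher, and by 0.36 without pair 3. CALR, calreticulin, a calcium-binding protein of the reticulum in fetal heart, differed by -0.03 ± 0.16 with 12 signals between 15.35 and 15.77.

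TMEM38A, which forms a potassium-permeable channel of the reticulum that balances charge during calcium release, differed by 0.26 ± 0.70 and was higher in 4 of 6 pairs. Its differences were 0.76, -0.34, 0.02, -0.60, 0.41 and 1.28 in pairs 1 to 6. They had the sign of HRC probe 1 in pairs 1, 4, 5 and 6 and the opposite sign in pairs 2 and 3. JPH2, junctophilin, which holds the reticulum close to the surface membrane, differed by 0.14 ± 0.36, with 0.47, 0.50, -0.10, -0.37, -0.04 and 0.36 in pairs 1 to 6. Its sign was that of HRC probe 1 in every pair but pair 5. TMEM38A and JPH2 are each measured by 1 probe.

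**Figure D4:**
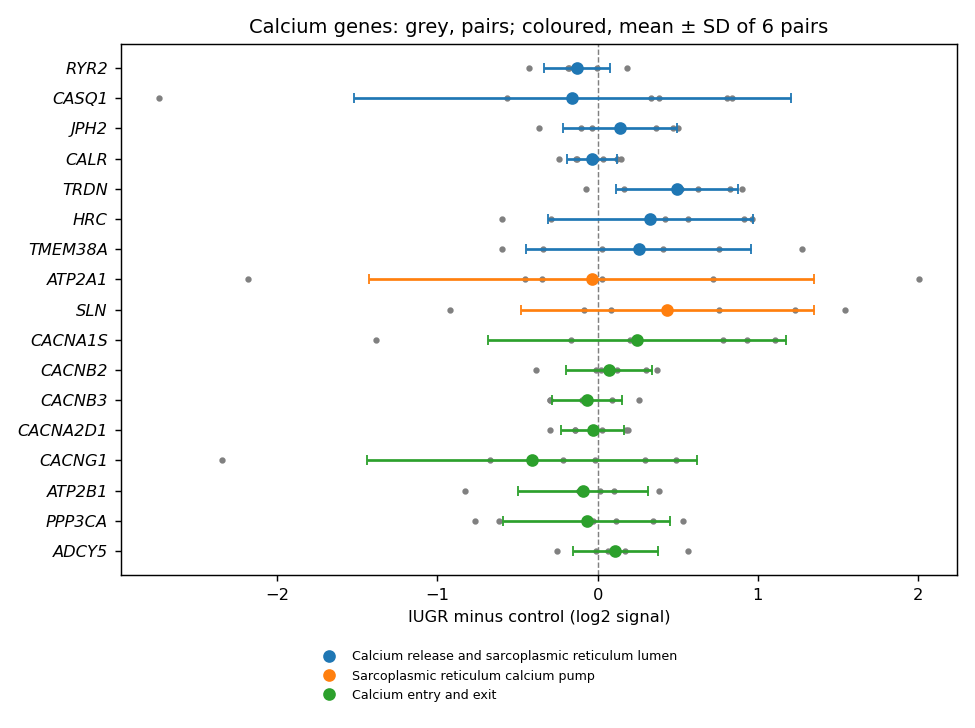
IUGR minus control difference (horizontal axis, log2 signal) of the named calcium genes; grey dots are the 6 pairs and coloured points are mean ± SD. Among the calcium release genes, RYR2 and CALR have the narrowest spread, and CASQ1 the widest, with pair 3 at -2.74.

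Of the calcium pump and its regulators, 2 of 7 listed genes were measured, and 0 passed the adjusted threshold in limma. ATP2A1, the pump of fast skeletal muscle, differed by -0.04 ± 1.39 and was higher in 3 of 6 pairs. Its difference was -2.19 in pair 1 and 2.01 in pair 6. It became 0.39 without pair 1 and -0.45 without pair 6. On the mean 0 of its 10 probes were higher in IUGR, but the probes share the same arrays and are not separate evidence. The array annotation calls these probes ATP2A3, a pump of other tissues, and the name ATP2A1 rests only on their RefSeq accession, so which pump they measure is not settled here. SLN, sarcolipin, an inhibitor of the pump that is most abundant in atria, differed by 0.44 ± 0.92. Of 27 genes for calcium entry and exit, 8 were measured, 3 higher and 5 lower, with a median of -0.05 and 0 passing. Among them were ADCY5, an adenylyl cyclase of heart muscle (0.11 ± 0.27), CACNB2, a calcium channel beta subunit (0.07 ± 0.27), CACNB3, another beta subunit (-0.07 ± 0.22), and CACNA2D1, the alpha-2/delta subunit (-0.03 ± 0.20). ATP2B1, a calcium pump of the surface membrane, differed by -0.09 ± 0.41 and PPP3CA, the catalytic subunit of calcineurin, by -0.07 ± 0.52; without pair 5 these were 0.05 and 0.07. The subunits CACNA1S and CACNG1 of the skeletal muscle calcium channel had dim probes and differed by 0.25 ± 0.93 and -0.41 ± 1.03. The value of CACNG1 was -0.02 without pair 5, whose control stood at 5.06. Of the 15 calcium genes other than TRDN and HRC, 6 changed sign when some 1 pair was left out. Symbols for the cardiac calsequestrin, phospholamban and the cardiac calcium pump were not matched to a probe, so these genes were not analysed here.

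Among the 590 other named genes, those with the pattern most like each gene were found by r over the 12 arrays after group means had been removed. For HRC probe 1 they were RAB7A, a small GTPase of late endosomes (r = 0.863), PRKCA, protein kinase C alpha (0.805), SULT2B1, a sulfotransferase (0.795), TMEM38A (0.756) and MSR1, a macrophage scavenger receptor (0.752). HRC probe 2 gave 0.850 with RAB7A and 0.720 with TMEM38A. The 5 probes of RAB7A ran from 0.581 to 0.875. PRKCA, SULT2B1 and MSR1 were dim, at percentiles 38.3, 32.6 and 13.7 of the probe means, and the probes of MSR1 disagreed (-0.0930 and 0.752). JPH2 ranked 15 with r = 0.616, and TRDN ranked 100 with r = 0.340. The remaining calcium release genes ranked lower, RYR2 at 263 (r = 0.0606), CASQ1 at 292 (-0.00322) and CALR at 422 (-0.169).

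For TRDN probe 1 they were VLDLR, the very low density lipoprotein receptor (r = 0.858), IL1RN, the interleukin-1 receptor antagonist (0.823), CEL, a carboxyl ester lipase (0.821), SCP2, a sterol carrier protein (0.803), and RGS4, a regulator of G protein signalling (0.785). The 4 probes of VLDLR, which is abundant in heart, ran from 0.627 to 0.858. The other 4 TRDN probes ranged widely with these genes, from -0.203 to 0.552 with VLDLR and from -0.198 to 0.578 with SCP2. The probes of IL1RN ran from 0.0682 to 0.823 and those of RGS4 from -0.367 to 0.785. CEL and RGS4 were dim, at percentiles 31.1 and 43.2 of the probe means. IL1RN stood at 8.40 in control replicate 4 (other controls 6.79 to 7.21), which was also the highest control on TRDN probe 1 (6.68). The part of that array in the r of IL1RN was not tested. HRC ranked 124 and TMEM38A 133 among the genes like TRDN probe 1.

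**Figure D5:**
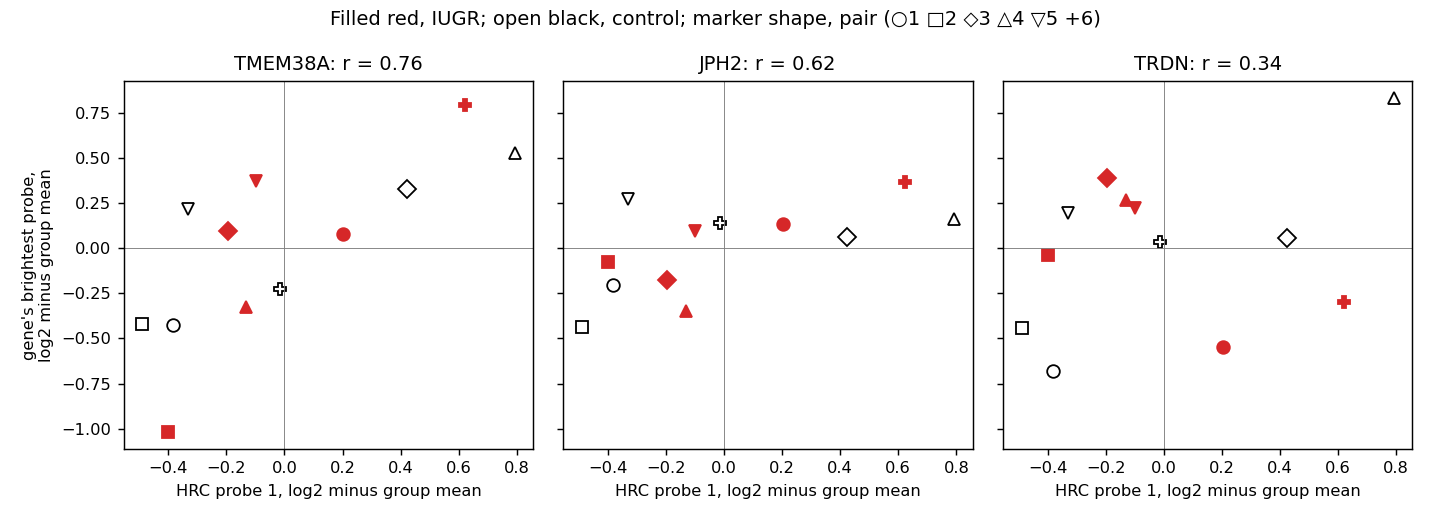
Log2 signal minus group mean of TMEM38A, JPH2 and TRDN probe 1 (vertical axes) against that of HRC probe 1 (horizontal axis) in 12 ventricles; red is IUGR, open symbols are control, and the shape gives the pair. TMEM38A follows HRC at r = 0.76 and JPH2 at 0.62, while TRDN is scattered at 0.34. The calcium release genes not drawn had lower values, 0.06 for RYR2, -0.003 for CASQ1 and -0.17 for CALR.

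Markers of other tissue that a ventricle sample could hold were measured beside these values. Of 14 heart muscle markers 3 were measured, and their mean signal ran from 14.39 to 14.60 log2 in IUGR and from 14.31 to 14.62 in control ventricles. Of 6 atrial markers 3 were measured, with a range of 7.63 to 11.07 in IUGR and 7.17 to 9.30 in control ventricles. GJA5, an atrial and vascular gap junction gene among them, had r = 0.670 with TRDN probe 1, while NPPA, the atrial natriuretic peptide, had r = -0.0688 with it. SLN, also among them, had r = 0.311 with that probe. IUGR replicate 3 was the highest of the 12 arrays on NPPA (15.79), SLN (8.73) and GJA5 (8.71), and also on TRDN probe 1 (6.73). Without pair 3 the difference on TRDN probe 1 was 0.43. On HRC probe 1 that array stood at 7.84, below the IUGR mean of 8.04. Of 13 skeletal muscle markers 8 were measured, from 5.97 to 6.58 in IUGR and from 5.94 to 7.11 in control ventricles.

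Control replicate 1, which had the lowest TRDN probe 1 signal, was the highest control on 3 of the 8 skeletal markers: MYL1, a fast skeletal myosin light chain (7.49, with the other controls at 2.28 to 3.07), TNNI2, a fast troponin (6.22), and the probes named ATP2A1 (6.07). On the other 5 it was not, and on ACTN3, a fast fibre actinin, it was the lowest. Without pair 1 the difference on TRDN probe 1 was 0.47. Endothelial markers (2 of 7 measured) ran from 4.08 to 5.28 in IUGR and from 3.58 to 4.90 in control ventricles, and red blood cell markers (2 of 10) from 12.99 to 13.99 and from 12.54 to 13.59.

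No measured marker passed the adjusted threshold in limma, so the mean differences that follow are a description. KDR, an endothelial receptor, and HBA, a haemoglobin gene, were higher in IUGR in 6 of 6 pairs, by 0.43 ± 0.30 and 0.41 ± 0.31, as were 1.31% of all probes. The other endothelial marker, VWF, differed by 0.12 ± 1.13 and the other red blood cell marker, BPGM, by 0.14 ± 0.26, each higher in 4 of 6 pairs. Of the smooth muscle markers, TAGLN differed by 0.50 ± 0.43, higher in 5 of 6 pairs, and MYH11 by -0.55 ± 0.92, higher in 1 of 6. On the mean all 3 atrial markers were higher in IUGR, and their average differed by 0.44 ± 1.03, higher in 3 of 6 pairs. Of the liver markers 5 were lower and 1 higher, and their average differed by -0.54 ± 0.99, higher in 1 of 6 pairs. Several of these differences rested on 1 control array. Without pair 6, ITIH3, SERPINF2 and VTN differed by 0.08, 0.07 and 0.01, and without pair 2 APOB differed by -0.13. AHSG differed by -1.13 ± 2.01, higher in 1 of 6 pairs. Skeletal markers were divided, 4 higher and 4 lower.

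Within groups, the endothelial markers had r = 0.0183 (KDR) and 0.395 (VWF) with TRDN probe 1, and 0.228 and 0.631 with HRC probe 1. VWF was dim, at percentile 29.3 of the probe means, where KDR stood at 58.9. The leukocyte markers CD14, CD4 and CD3E had r = 0.358, 0.635 and 0.576 with TRDN probe 1 and from 0.00242 to 0.313 with HRC probe 1. CD3E stood near the floor of the arrays, at percentile 2.20, with CD4 at 58.8 and CD14 at 73.1. The red blood cell markers ran from 0.0782 to 0.278 with TRDN and from -0.221 to -0.0383 with HRC, and the smooth muscle markers from 0.194 to 0.227 with TRDN and from -0.553 (MYH11) to 0.502 (TAGLN) with HRC. MYH11 was dim, at percentile 26.3, and TAGLN stood at 81.7. Skeletal markers ran from -0.621 to 0.495 with TRDN and from -0.355 to 0.392 with HRC, and liver markers from -0.299 to 0.243 and from -0.291 to 0.179. The -0.621 came from the probes named ATP2A1, whose gene is not settled here, and the next lowest skeletal marker was MYL1 at -0.435. COL1A2, a collagen gene of fibroblasts, had r = -0.157 and -0.0549.

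Liver markers (6 of 11) ran from 3.95 to 5.65 and from 4.48 to 7.14. Smooth muscle (2 of 6) ran from 5.51 to 6.46 and from 5.71 to 6.30, leukocytes (3 of 8) from 4.91 to 5.72 and from 4.88 to 5.93, and the only fibroblast gene of 7, COL1A2, from 5.51 to 6.20 and from 4.91 to 6.91. The part of any of these in the values of TRDN and HRC was not tested.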

How the data were processed

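Rabbit fetal ventricle RNA was measured on single-colour Agilent arrays. The authors deposited log2 probe signals, processed with RMA per the submitters' processing notes, without a version. Base 2 was inferred, since the highest value equals 58146 on a linear scale, under the 16-bit limit. Scanner software, background method and flags are not stated in the labels. Values were used as deposited.

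Probe symbols were updated through RefSeq accessions (1402 probes), unchanged symbols (238) or synonyms (33). No genome build is named, so no coordinates are given, and no sequences were used here. The members and lists were chosen with earlier results of these data known. Every TRDN and HRC probe, every measured gene of 3 calcium lists and the 5 genes most correlated with each member were named; markers in the last paragraphs were named after their values were seen.

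Fits used limma 3.58.1 in R 4.3.3 (pair as a block, Benjamini-Hochberg over 43603 probes) and correlations Python 3.11.15. The fit was tested on simulated data. There it called 0 of 67 probes changed by 0.5 log2 between the groups, 10 of 67 changed by 1 and 49 of 66 changed by 2, with 4 false calls. A count of 0 called probes therefore does not show that changes of 0.5 log2 were absent. The numbering pairs the samples: partners' deviations from group means correlated at 0.129 to 0.254. The number of arrays limits the precision. Alternatives were quantile normalisation, array centring, probe averaging, medians, a filter on dim probes, an intensity trend, no block, and leaving out each pair.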

Additional observations from a re-analysis of the deposited data

Results flagged for a closer look

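The screen covered the 7 probes of TRDN and HRC, every measured gene of the calcium and marker lists and the genes most like each member; the marker lists were added to it after their values were seen. In 9 of 112 groups of 6 arrays, 1 array stood far from the other 5, where chance flags about 1 in 20 groups (5.6 here), and several of these groups share an array. None of the 14 groups of TRDN and HRC values was among them. SLN stood at 8.73 log2 in IUGR replicate 3, where the other IUGR ventricles ranged from 4.82 to 5.94, and its difference of 0.44 became 0.21 without that pair. CACNA2D1 stood at 6.83 in IUGR replicate 6 (others 7.15 to 7.28), and its difference changed from -0.03 to 0.02 without it. IL1RN stood at 8.40 in control replicate 4 (others 6.79 to 7.21), and its difference changed from -0.19 to 0.01. MYL1 stood at 7.49 in control replicate 1 (others 2.28 to 3.07), and its difference changed from -0.42 to 0.40. The other 5 were liver genes. APOB stood at 8.07 in control replicate 2 (others 2.04 to 2.82), and its difference changed from -1.10 to -0.13 without pair 2. In control replicate 6, ITIH3 stood at 7.12 (others 2.34 to 3.41), SERPINF2 at 6.17 (others 3.04 to 4.03), VTN at 5.08 (others 2.06 to 3.08) and TF at 10.08 (others 8.91 to 9.19). Without pair 6 the differences of ITIH3, SERPINF2 and VTN changed from -0.37, -0.29 and -0.34 to 0.08, 0.07 and 0.01. That of TF changed from 0.001 to 0.19.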

How the results depend on the processing

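No difference of the 7 probes changed by more than its SD over pairs under the 10 alternatives run on each, though 2 near 0 changed sign: TRDN probe 3 when pair 6 was left out (0.43) or the median over pairs was taken (0.30), and TRDN probes 3 and 5 when a gene's probes were averaged (0.19 for TRDN as a whole). No probe was called between IUGR and control under any of the 11 alternatives, including the fit with no replicate block (0 called, with 857 at an unadjusted p under 0.05), so the pairing changed no call. The count of probes differing between pairs (65) was 330 among probes above the median level, 383 with an intensity trend and robust prior, and 0 to 1 when a pair was left out. The cause was not tested. The correlation of TRDN probe 1 between partners was -0.0659 with the mean of all probes and 0.436 to 0.783 when a pair was left out. That of HRC probe 1 was 0.185 with the mean of all probes and -0.409 to 0.135 when a pair was left out; the cause was not tested. The pair means of TRDN and HRC correlated at 0.163 to 0.612 when a pair was left out. Leaving TRDN and HRC out of the calcium release list, chosen after seeing the data, moved its median difference from 0.14 to -0.03. The number of pairs limits what these arrays resolve for TRDN probes 3 to 5. Values of these dim probes are shared with many other probes, but the median steps, 0.0570, 0.0863 and 0.0621 log2, are smaller than their SDs within groups. The part of such ties in their differences was not tested.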
